A study of Homo sapiens with 2 samples.

Results

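ERO1A, STC2, DDIT4, VLDLR and ASNS are 5 genes known as targets of the cell's responses to stress in the endoplasmic reticulum (ER), to low oxygen and to lack of amino acids. They were taken by symbol from the deposited array values of BE(2)C cells, a human neuroblastoma cell line with an amplified MYCN gene, and are 5 of the 14812 genes that the table names. In cells given siRNA against MYCN, ERO1A and STC2 were lower than in cells given control siRNA (2.88-fold and 1.93-fold), DDIT4 and VLDLR were higher (1.77-fold and 1.62-fold), and ASNS was close to its control value (1.18-fold lower). The genes were selected on values of this same contrast, their log2 differences between the arrays, so these values are a description and support no test. Their shared label, ER oxidation and stress response, names 1 enzyme of ER oxidation, ERO1A, and 4 genes with other functions, and the 5 did not move in 1 direction.

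The series holds 2 samples, and each group has 1. The first was transfected with non-targeting control siRNA from one supplier and the other with a single MYCN siRNA, named MYCN2, from another supplier. Both received the siRNA with the same lipid reagent, and RNA was taken 36 hours later and hybridised to Affymetrix Human Gene ST arrays, which read each transcript with a set of short probes. With a single MYCN siRNA, loss of MYCN and any other action of that siRNA cannot be told apart. MYCN was not analysed here as a transcript, and the depth of its knockdown is not given. The title of the control sample says that it is a reanalysis, and the sources used here do not explain the word. Whether the 2 arrays were hybridised together is not stated in them, so a difference between hybridisations and a difference between the groups cannot be told apart in any value below.

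Proteins that enter the ER fold with the help of disulfide bonds. ERO1 oxidases reoxidise protein disulfide isomerases, which make these bonds, and pass the electrons to oxygen. When unfolded proteins build up, the sensors PERK, IRE1 and ATF6 start the unfolded protein response. PERK, and the amino acid sensor GCN2, phosphorylate the initiation factor eIF2 alpha, which raises translation of the transcription factor ATF4. ATF4 and its partner CHOP (gene DDIT3) then activate genes of amino acid supply, redox balance and growth arrest. Low oxygen acts through the HIF factors, and several genes answer to both pathways. MYCN, a transcription factor of the MYC family, drives growth and protein synthesis in neuroblastoma.

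Genes under the median of all probe sets in both arrays were set aside as too dim, which left 10592 measured genes. The gene lists used below name 306 genes, of which 186 are in the table and 170 were measured. Most listed genes without a measurement thus had no named probe set here, which says nothing about their level. Array medians were 4.60 (control siRNA) and 4.55 (MYCN siRNA) on the log2 scale, and values near them are not shown to be above background. No value has a replicate and no p-value is given, since each group is 1 array, and this number limits the precision. The one measure of repeated readings in the data is that between probe sets of a gene, with an SD of 0.32 for a log2 difference over 374 genes, pooled over levels. Both probe sets of such a gene read the same RNA on the same arrays, so this SD leaves out the spread between cultures. Over all measured genes the log2 difference had a larger SD, 0.43, which mixes reading error with differences between genes. The noradrenergic markers of neuroblastoma were present, with 10 of 15 in the table and log2 levels from 6.50 (TH) to 10.8 (GATA2) as the mean of both arrays. Of these 10, 8 were higher with MYCN siRNA (median difference 0.16), led by DBH, which makes noradrenaline, from 9.32 to 10.8 (1.45, 2.73-fold), and DDC at 0.38, while ISL1 and HAND2 were at −0.43 and −0.09. TH, at 0.06, turned below 0 with quantile normalization, which gave 3 lower and 7 higher. The share that was lower as reported, 20%, compares with 48.0% of all measured genes. The markers were chosen with earlier results of these data known, so nothing is read from that share. Markers of other cell types went both ways. Of the 4 measured Schwann and glial markers, S100B went from 5.90 to 6.92 (1.02), SOX10 was at −0.28, GFAP at −0.24 and ERBB3 at 0.00, and their linear sum went from 203 to 246. Of the 4 endothelial and epithelial markers, CLDN4 went from 4.61 to 5.60 (0.99), KDR, dim at 4.64 in the control array, was at −0.65, KRT18 at −0.38 and KRT8 at −0.06, and opposite moves left their linear sum at 151 and 149. LUM went from 6.54 to 5.37 as the measured fibroblast marker, while DCN, below the array median in both arrays, went from 3.12 to 3.86. CSF1R, the measured blood cell marker, went from 4.64 to 4.26. Like KDR, it was above the array median in the control array alone, and so counted as measured only through the array where it was higher. The part of these markers in the results below was not tested.

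All 5 genes were measured, each by a single probe set, and all 5 lay above the array median in both arrays. ERO1A (NCBI gene 30001, chromosome 14) had a log2 value of 9.21 with control siRNA and 7.69 with MYCN siRNA. STC2 (gene 8614, chromosome 5) stood at 6.93 with control siRNA and 5.98 with MYCN siRNA. Both were thus lower with MYCN siRNA, with log2 differences of −1.52 for ERO1A (4.81 times the probe set SD in size) and −0.95 for STC2 (3.00 times). DDIT4 (gene 54541, chromosome 10) stood at 6.76 with control siRNA and 7.58 with MYCN siRNA. VLDLR (gene 7436, chromosome 9) stood at 5.86 with control siRNA and 6.55 with MYCN siRNA. Both were higher, with log2 differences of 0.82 for DDIT4 (2.59 times the SD) and 0.69 for VLDLR (2.18 times). ASNS (gene 440, chromosome 7) stood at 7.02 with control siRNA and 6.79 with MYCN siRNA, a difference of −0.23, which is 0.73 times the SD. In bulk RNA of this kind, fewer cells that express a gene and less of its RNA per cell cannot be told apart.

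**Figure D1:**
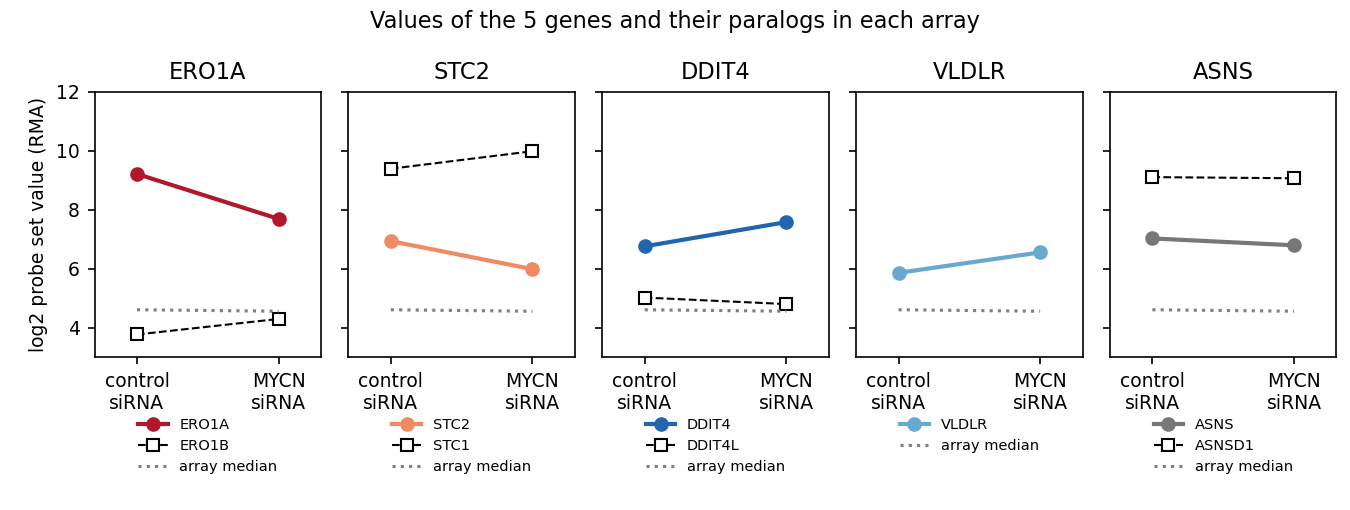
Log2 probe set value (vertical axis) of each gene in the control siRNA and MYCN siRNA arrays (horizontal axis), as filled circles with solid lines; open squares with dashed lines are the paralog, where the table holds it, and the dotted line is the array median. ERO1A goes from 9.21 to 7.69 and STC2 from 6.93 to 5.98, while the DDIT4 and VLDLR lines end higher, at 7.58 and 6.55; levels of different genes are not comparable.

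Ordered by their difference, the 5 genes ran ERO1A, STC2, ASNS, VLDLR, DDIT4. VLDLR and DDIT4 lay 0.13 apart, within the SD of 0.45 that such a gap has from probe sets alone, and so could not be ordered. The gaps from ERO1A to STC2 (0.57), from STC2 to ASNS (0.72) and from ASNS to VLDLR (0.93) were 1.28, 1.60 and 2.06 times that SD. Since that SD leaves out the spread between cultures, these gaps do not establish an order either. ERO1A was the 12th lowest of the 10592 measured genes. STC2 was number 149 from the bottom, DDIT4 number 440 from the top and VLDLR number 649 from the top, while 25.2% of measured genes were at or below ASNS.

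Of the 5 genes, 1 (ERO1A) was at least 2-fold lower, as were 1.16% of measured genes, and 0 were at least 2-fold higher, as were 2.21%. At 1.5-fold, 2 of the 5 were lower (background 5.79%) and 2 higher (background 8.81%). Since the choice of the genes rests on this contrast, nothing is read from these shares. STC2 lay just short of 2-fold and passed it, at −1.003, when the arrays were quantile normalized.

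**Figure D2:**
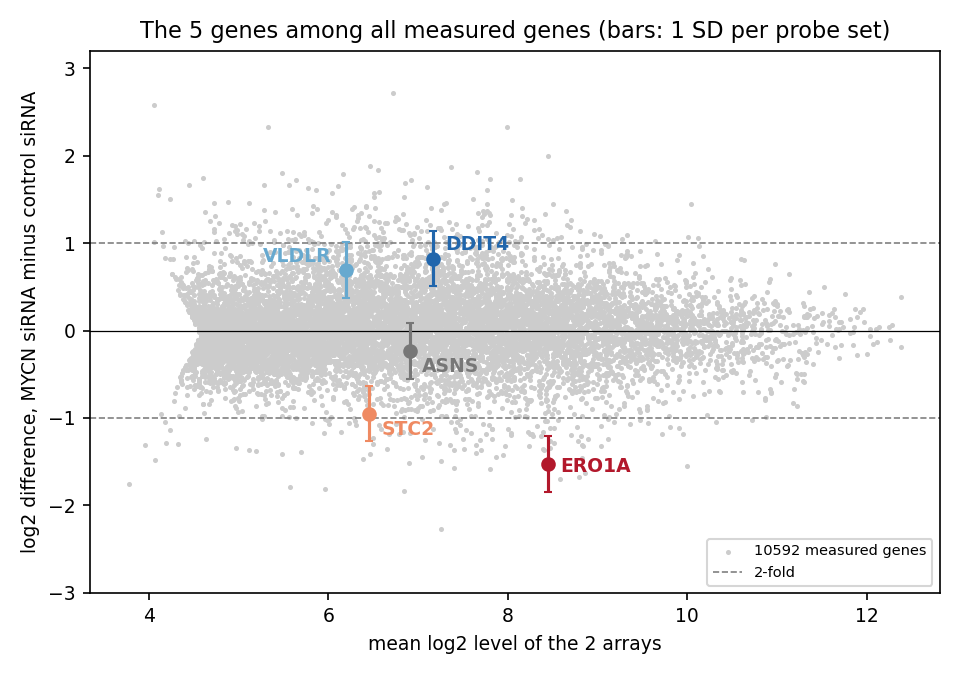
Log2 difference, MYCN siRNA minus control siRNA (vertical axis), against the mean log2 level of both arrays (horizontal axis) for 10592 measured genes in grey, with the 5 genes in colour. Bars are 1 SD per probe set (0.32) and dashed lines mark 2-fold; ERO1A lies below the lower line, STC2 just inside it, and DDIT4 and VLDLR inside the upper line.

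Promoter sequence was set beside these opposite differences because the stress pathways act through short DNA elements. RefSeq (GRCh38.p14) gave a window for all 5 genes, and the 250 bases before the transcription start were searched on both strands. ERO1A and DDIT4 each held 1 match to ACGTG, a core of the hypoxia element that 18.5% of all 35116 windows hold, and ASNS held TGATGAAAC, the amino acid response element known from this promoter, which 0.196% of windows hold. The ERO1A, DDIT4 and ASNS windows are printed because they carry these letters, 5′ to 3′ on the strand of the gene. Capitals mark ACGTG and GCGTG on either strand in ERO1A (chr14:52695559-52695808, minus strand) and DDIT4 (chr10:72273674-72273923, plus strand), and TGATGAAAC in ASNS (chr7:97872409-97872658, minus strand).
ERO1A: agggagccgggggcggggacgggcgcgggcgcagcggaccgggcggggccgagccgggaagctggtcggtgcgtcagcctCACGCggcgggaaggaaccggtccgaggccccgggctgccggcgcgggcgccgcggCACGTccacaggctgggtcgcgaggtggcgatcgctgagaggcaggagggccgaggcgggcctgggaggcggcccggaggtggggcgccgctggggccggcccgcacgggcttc
DDIT4: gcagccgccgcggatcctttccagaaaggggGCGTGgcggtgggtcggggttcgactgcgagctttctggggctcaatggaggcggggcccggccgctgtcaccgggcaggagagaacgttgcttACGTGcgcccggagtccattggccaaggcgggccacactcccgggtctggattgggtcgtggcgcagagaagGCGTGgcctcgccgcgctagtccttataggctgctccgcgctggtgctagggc
ASNS: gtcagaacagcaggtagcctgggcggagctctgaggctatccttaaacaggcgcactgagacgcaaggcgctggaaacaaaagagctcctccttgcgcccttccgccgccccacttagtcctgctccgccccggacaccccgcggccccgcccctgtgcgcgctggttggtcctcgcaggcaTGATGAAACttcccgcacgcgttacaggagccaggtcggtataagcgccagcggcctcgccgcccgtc
The ACGTG match is on the minus strand of the gene at ERO1A and on the plus strand at DDIT4, so the core stands in the window of 1 gene that was lower and of 1 that was higher. GCGTG, the other form of the core, had 1 match in ERO1A, 3 in STC2, 2 in DDIT4, 5 in VLDLR and 1 in each of the 2 windows of ASNS, and stands in 32.2% of all windows. These windows are rich in G and C, from 63.6% for STC2 to 81.6% for ERO1A against a median of 58.0% over all windows. The E-box CACGTG, which holds ACGTG within it and which MYC proteins bind, was in none of the 5 genes' windows and in 6.34% of all. TTGCATCA, a strict form of the ATF4 element (0.772% of windows), and the ER stress element, CCAAT and CCACG with 9 free bases between them (0.074%), were also in none of them. The search for TGATGAAAC was added after the sequences were seen, and the looser TGATGNAAN, which contains it, matched that same place in ASNS, no other window of the 5 genes, and 3.13% of all windows. A match is a run of letters, and neither a match nor its lack says whether a factor binds there.

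ERO1A, the oxidase, was set beside the other genes of disulfide formation in the ER. Of 31 listed genes, 15 were measured, 8 lower and 7 higher, with a median difference of −0.03 against 0.01 over all measured genes. The sign of this median turned with median centring (0.02), without the level filter (0.02) and when ERO1A was left out (0.02). ERO1A was the only measured member past 2-fold. The next lowest was PRDX4, the ER peroxiredoxin that uses the peroxide made by ERO1, which went from 7.17 to 6.50 (−0.67). SELENOF, a selenoprotein that binds the glycoprotein folding sensor, went from 11.6 to 11.0 (−0.59). At the upper end stood SELENOS, a selenoprotein of ER-associated degradation, at 5.71 and 6.15 (0.44), and TMX3, a membrane-bound disulfide isomerase, at 7.02 and 7.44 (0.42). ERO1A thus lay 0.86 below the next gene of its list.

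The second ERO1 oxidase, ERO1B, lay below the array median in both arrays, at 3.76 and 4.29, and did not count as measured. The RefSeq window of ERO1B held the ER stress element on its minus strand, 1 of 26 windows of 35116 to do so, and ERO1A's window did not. The stretch from 250 to 191 bases before the start (chr1:236282149-236282208, minus strand) is printed to show it, with the element in capitals.
ERO1B: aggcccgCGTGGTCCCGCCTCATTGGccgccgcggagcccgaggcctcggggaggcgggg
On this strand the element reads as its reverse complement, CGTGG first and ATTGG last. A level this dim gives no firm direction for ERO1B.

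The measured genes next to ERO1A on chromosome 14 went the other way. GPR137C, which encodes a lysosomal membrane protein, went from 6.88 to 7.99 (1.10, 2.15-fold higher). STYX, a catalytically inactive phosphatase-like protein, went from 8.06 to 9.27 (1.20, 2.30-fold higher). Both neighbours were past 2-fold upward, as were 2.21% of all measured genes, and the rule that chose them used position alone. The neighbours of the other 4 genes did not reach 2-fold. PUM3, a nucleolar RNA-binding protein next to VLDLR, was at −0.74, and DMRT1 on its other side at −0.37. Beside STC2, the cardiac homeobox gene NKX2-5 was at −0.20 and BOD1, a mitotic gene, at −0.10. Beside DDIT4, ANAPC16, a subunit of the anaphase-promoting complex, was at −0.09 and MCU, the mitochondrial calcium channel, at 0.21. Beside ASNS, SDHAF3, an assembly factor of succinate dehydrogenase, was at −0.31 and the pseudogene CCZ1P-OR7E38P at −0.08, and the copies of a pseudogene make its value uncertain.

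STC2 encodes a secreted glycoprotein that binds and blocks the protease PAPP-A, which frees insulin-like growth factors (IGF) from their binding proteins. Of the 15 stanniocalcins and IGF genes listed, 10 were measured, 3 lower and 7 higher (median 0.17). The 30% that were lower compare with 48.0% of all measured genes, and nothing is read from that share. STC2 was the lowest of the 10. Its paralog STC1 went from 9.39 to 9.98 (0.60, 1.51-fold higher), and the log2 difference of STC2 minus that of STC1 was −1.55. IGF2R, the receptor that takes IGF2 to lysosomes, had the highest difference, from 8.55 to 9.31 (0.77). IGFBP3, an IGF-binding protein, was next lowest after STC2, at 5.10 and 4.51 (−0.59), the latter below the array median. PAPPA2, a relative of PAPP-A, was dim at 4.36 and 4.57. The median of this list moved to 0.39 with a stricter level filter and to 0.07 without a filter.

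DDIT4, also called REDD1, restrains the growth kinase complex mTORC1 by way of the TSC complex. Among 42 listed genes that form or control mTORC1, 31 were measured, 13 lower and 17 higher, with a median of 0.04 that turned to −0.02 after quantile normalization. DDIT4 was the third highest of them. Above it stood RRAGB, a Rag GTPase that brings mTORC1 to the lysosome, from 5.65 to 6.77 (1.12, 2.17-fold), the 1 member past 2-fold. SESN3, a member of the stress-induced sestrins that restrain mTORC1, went from 6.87 to 7.74 (0.87). The other measured sestrins, SESN1 and SESN2, stood at 0.38 and 0.31. The lowest were KICS2, a subunit of the KICSTOR complex that holds the GATOR1 inhibitor at lysosomes, from 7.27 to 6.35 (−0.92), and EIF4EBP1, the translation repressor that mTORC1 phosphorylates, from 10.1 to 9.32 (−0.83). DDIT4L, the paralog of DDIT4, was dim and went the other way, from 5.02 to 4.80 (−0.22). RRAGB was under 2-fold when 16 was added to the linear values.

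VLDLR is a cell surface receptor for lipoproteins that carry apolipoprotein E and for reelin, the secreted guide of migrating neurons. Of 27 listed genes of the LDL receptor family and reelin signalling, 15 were measured, 7 lower and 8 higher (median 0.03). LRP10, LRP1, LRP12 and VLDLR, all receptors of the family, had the 4 highest differences. Other receptors of the list were lower: LRP4, LRP3 (−0.42), LRP11 (−0.26), LRP5 (−0.08) and LDLRAD3 (−0.03, above 0 with median centring). LRP6 was at 0.04. LRP10 went from 6.68 to 7.83 (1.15, 2.22-fold, the 1 member past 2-fold), LRP1, a large scavenger receptor, from 5.48 to 6.31 (0.84), LRP12 from 6.63 to 7.39 (0.76), and VLDLR followed at 0.69. RELN, which encodes reelin, was at 11.4 in both arrays (0.05). The lowest were LRP4, a receptor of the neuromuscular junction, from 5.78 to 5.08 (−0.70), and CRKL, an adaptor downstream of reelin, from 9.73 to 9.29 (−0.44). LRP8, the other reelin receptor, was not analysed here, and DAB1, their adaptor, lay below the array median at 4.26.

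ASNS makes asparagine from aspartate and glutamine and is a classical ATF4 target. Of 21 listed ATF4 targets in amino acid synthesis and transport, 8 were in the table, and all 8 were measured. Of these, 7 were lower and 1 higher, with a median of −0.54, or −0.62 without ASNS, against 0.01 over all measured genes. The share that was lower, 87.5%, compares with 48.0% of measured genes. PYCR1, the last enzyme of proline synthesis, went from 9.32 to 8.22 (−1.10, 2.15-fold lower). CTH, which makes cysteine from cystathionine, went from 6.55 to 5.48 (−1.06, 2.09-fold lower). These 2 of 8 were past 2-fold, against 1.16% of measured genes. The list was chosen with earlier results of these data known, so nothing is read from these shares. PSAT1, the serine synthesis transaminase, went from 11.3 to 10.5 (−0.79), CBS, the enzyme before CTH, from 8.69 to 8.07 (−0.62), and SHMT2, the mitochondrial serine hydroxymethyltransferase, from 7.05 to 6.59 (−0.47). PHGDH, the first enzyme of serine synthesis, stood at −0.26, and PSPH, the last, was the 1 that was higher, from 8.44 to 8.74 (0.30). ASNS and PHGDH were the lower members nearest to 0 and could not be ordered, since quantile normalization put them at −0.29 and −0.24. With the offset of 16, PYCR1 alone stayed past 2-fold in this list.

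Among 17 listed enzymes of asparagine, aspartate and glutamine, 9 were measured, with none past 2-fold and a median of −0.05 that turned to 0.00 with median centring. PPAT, the first enzyme of purine synthesis and a user of glutamine, was lowest, from 9.46 to 8.92 (−0.54), followed by the asparaginase ASPG, from 5.87 to 5.59 (−0.28). NARS1, the tRNA synthetase that loads asparagine, stood at −0.22, close to ASNS. The asparaginase ASRGL1 was highest, from 5.37 to 5.68 (0.31), then GFPT1, the entry enzyme of hexosamine synthesis, at 0.20. ASNSD1, which resembles ASNS in sequence, was level at 9.10 and 9.07 (−0.04, and above 0 with median centring).

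STC2, DDIT4, VLDLR and ERO1A share a list of other ATF4 or CHOP targets, of which 11 of 20 were measured. Of these, 3 were lower and 8 higher (median 0.31), and without the 4 genes 1 was lower and 6 higher, with the same median. Quantile normalization gave 4 lower and 7 higher (median 0.26). The share that was lower, 27.3%, compares with 48.0% of all measured genes. This list too was chosen with earlier results of these data known, so nothing is read from that share. GDF15, a stress-induced cytokine, went from 6.18 to 7.20 (1.01) and was the 1 member past 2-fold upward, narrowly, and not after quantile normalization, loess or the offset. DDIT4 was next, then TXNIP, a thioredoxin inhibitor from 5.63 to 6.36 (0.73), which passed DDIT4 with its brightest probe set. ERO1A and STC2 were the 2 lowest. BBC3, the pro-apoptotic PUMA, was at 5.03 and 4.72, and TRIB3, a pseudokinase that ATF4 induces, was level at 6.65 and 6.67, with a sign that turned under quantile normalization.

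**Figure D3:**
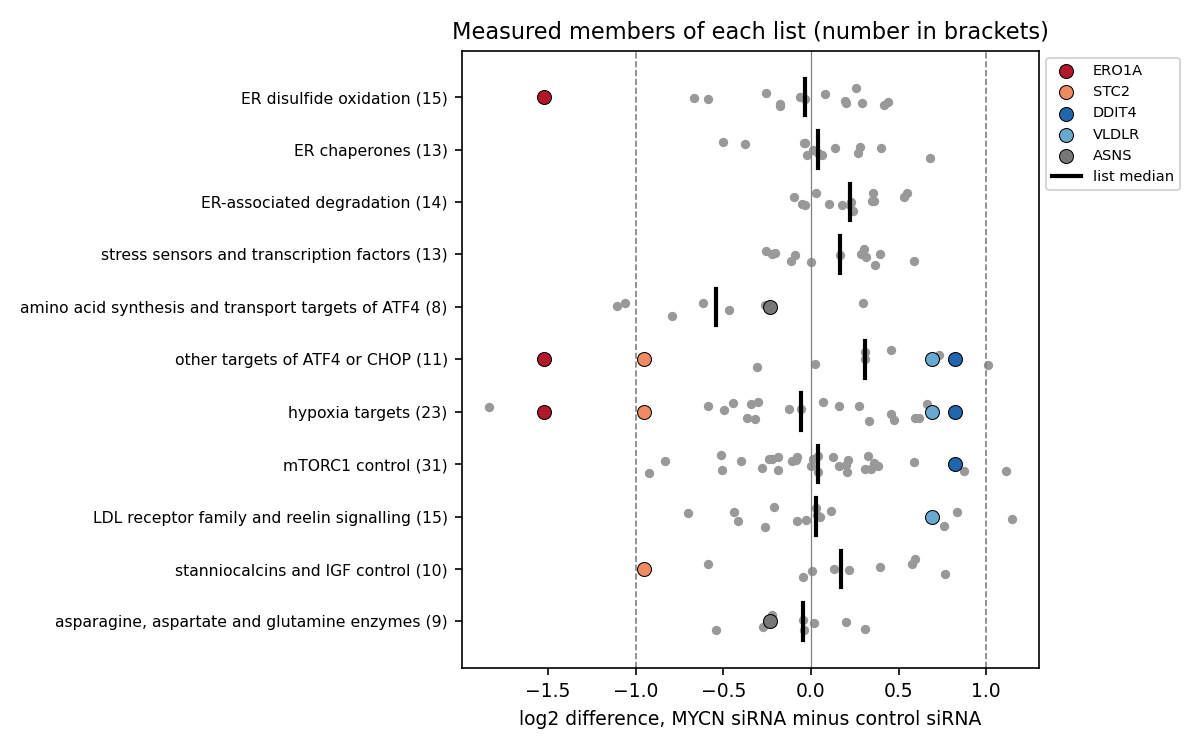
Log2 difference, MYCN siRNA minus control siRNA (horizontal axis), of the measured genes of each of 11 pathway lists (vertical axis, number measured in brackets); grey points are single genes, coloured points the 5 genes, black bars list medians and dashed lines 2-fold. The median is −0.54 for the amino acid targets of ATF4, which have 7 of 8 genes below 0, and the hypoxia and ATF4 or CHOP lists each hold ERO1A and STC2 near their lower end and DDIT4 and VLDLR near their upper end.

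The same 4 genes are hypoxia targets. Of 38 listed hypoxia targets, 23 were measured, 12 lower and 11 higher, with a median of −0.06 that did not change when the 4 genes were left out. Over the alternatives it lay between −0.09 and 0.00. The lowest were HK2, a hexokinase, from 7.77 to 5.93 (−1.84, 3.58-fold lower), and ERO1A. These 2 of 23 were at least 2-fold lower, against 1.16% of measured genes, and 0 were at least 2-fold higher, against 2.21%. This list, which holds 4 of the selected genes, was chosen with earlier results of these data known, so nothing is read from these shares. DDIT4 and VLDLR were the 2 highest as reported, but BNIP3L passed VLDLR after quantile normalization (0.69 against 0.65) and with the offset of 16 (0.65 against 0.57). The list thus held ERO1A and DDIT4 at opposite ends, 2.35 apart. Around VLDLR stood BNIP3L, a mitophagy receptor, from 9.76 to 10.4 (0.66), and INSIG2, a brake on sterol synthesis, from 5.60 to 6.22 (0.62). VEGFA, the vascular growth factor, was at 0.46, and LOX, a collagen-crosslinking oxidase, at −0.59; both were picked after their values were seen.

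Among the regulators of these pathways EPAS1 stood out. It encodes HIF-2 alpha and went from 7.16 to 8.10 (0.95, 1.93-fold higher). ARNT, the partner that the HIF factors share, went from 9.01 to 9.32 (0.31), and HIF1A was not analysed here. ATF4 mRNA went from 9.20 to 8.99 (−0.21), within the probe set SD of 0.32, and its control by translation would not show on an RNA array. DDIT3, which encodes CHOP, was dim at 5.06 and 5.45 (0.39), and ATF3 stood at 5.92 and 6.22 (0.30). The sensor genes EIF2AK3 (PERK), ERN1 (IRE1) and ATF6 were at 0.16, 0.36 and −0.11, and XBP1, the factor that IRE1 splices, at −0.26. Over 21 listed stress sensors and factors, 13 were measured, 5 lower and 7 higher, none past 2-fold (median 0.16). ATF5, an ATF4 relative, was highest, from 5.86 to 6.45 (0.59), and XBP1 and EIF2AK2, the sensor of double-stranded RNA, were lowest, the latter at −0.22. EIF2AK1, the haem-regulated kinase, held the same value, 10.4, in both arrays.

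ER chaperones bind and fold newly made proteins. Of 24 listed ER chaperones and their helpers, 13 were measured, 5 lower and 8 higher, none past 2-fold, with a median of 0.04. The splits moved with the scaling, to 2 lower and 11 higher with median centring. CDNF, an ER-resident neurotrophic factor, went from 6.92 to 7.60 (0.68), and SDF2, a partner of the ER DNAJ proteins, from 8.23 to 8.63 (0.40). FKBP7, a prolyl isomerase, went from 8.29 to 7.79 (−0.50), and SDF2L1, which the unfolded protein response induces, from 7.11 to 6.73 (−0.38). The calnexin and calreticulin genes, CANX and CALR, were at 0.01 and 0.06, and HYOU1 at 0.14. HSPA5, the BiP chaperone whose mRNA is a usual readout of ER stress, was not analysed here.

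In ER-associated degradation, which sends misfolded proteins to the proteasome, 14 of 25 listed genes were in the table. All 14 were measured, and 11 were higher and 3 lower. None was past 2-fold, the median was 0.22, and it lay between 0.20 and 0.27 under all 7 alternatives that apply to it. HERPUD2, a membrane protein of the HERP family, went from 8.96 to 9.50 (0.55), and SEL1L, the adaptor of the HRD1 ligase, from 8.55 to 9.08 (0.53). UBXN4 and DERL3 were lowest, at −0.09 and −0.05, the latter turning above 0 with loess. In this list 21.4% of measured genes were lower, against 48.0% of all. This list too was chosen with earlier results of these data known, so nothing is read from that share.

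The genes most like each of the 5 in their pair of values were found by the distance on the log2 scale over both arrays. MAP7D3 and FBXW2 were nearest to ERO1A (0.12 and 0.14 away), and CCNE1 and SERTAD2 to STC2 (0.08 and 0.09). DSTYK and DNAAF9 were nearest to DDIT4 (0.03 each), EXOC6B and LCN1 to VLDLR (0.02 and 0.03), and MAD2L2 and GAR1 to ASNS (0.01 and 0.02). A likeness over 2 arrays is weak, and ERO1A, whose difference is rare, had the most distant neighbours. MAP7D3 was at 9.09 and 7.72.

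**Figure D4:**
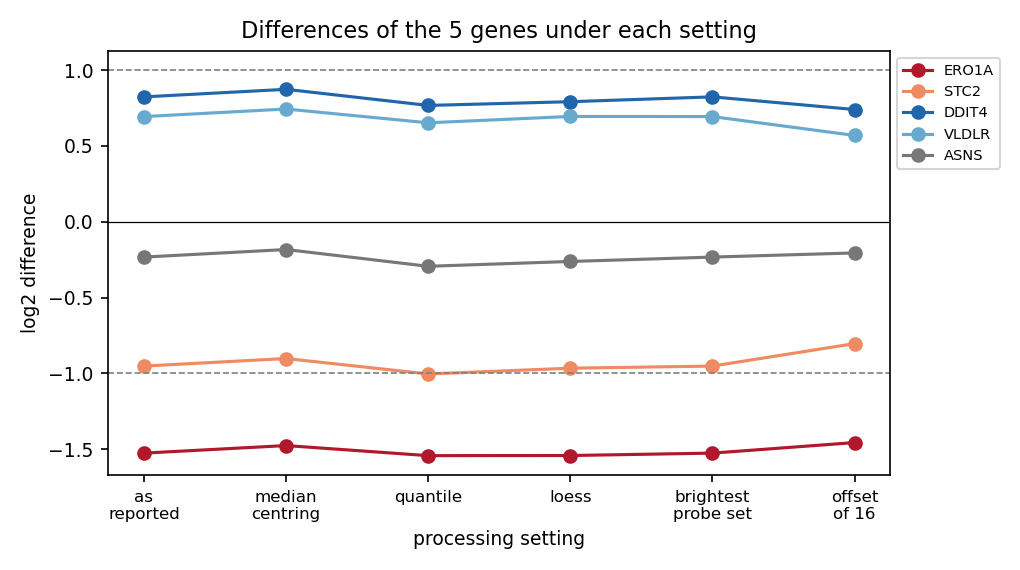
Log2 difference of the 5 genes (vertical axis) as reported and under 5 other settings (horizontal axis); dashed lines mark 2-fold. ERO1A lies between −1.54 and −1.46 under the alternatives, no gene crosses 0, and STC2 reaches −1.003 after quantile normalization. The brightest probe set could not move the 5 genes, which have 1 probe set each.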

How the data were processed

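RNA of 2 BE(2)C cultures, 1 per group, was measured on 1 array each; per the labels' protocols, 100 ng of RNA was labelled. The authors deposited log2 values of probe sets, summarised by RMA according to the submitters' processing notes. The sources used here give neither the software and settings nor the arrays that were normalized together. RMA scales arrays towards a like distribution, so a change in total RNA per cell cannot be seen. The 2 medians, 4.60 (control siRNA) and 4.55 (MYCN siRNA), were close but not equal.

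Of 46255 rows, 15835 had 1 gene symbol in the platform annotation, 0 had several and 30420 were unnamed here. All 15835 matched RefSeq genes of GRCh38.p14. Probe sets of a gene were averaged, and 10592 of 14812 genes (71.5%) passed the level filter. A fold is 2 to the power of the log2 difference, MYCN siRNA minus control siRNA, and 2-fold was the threshold for counts. No test was run, as each group has 1 array. The members and the 11 pathway and 5 marker lists were chosen with earlier results of these data known. Named genes are the 5 members, their paralogs, the 2 highest and 2 lowest of each list, members past 2-fold, a set of regulators, the nearest genes in pattern and on the chromosome, and some list members picked after their values were seen. Alternatives were median centring, quantile normalization, loess (span 0.3), the brightest probe set, an offset of 16, no level filter or the 70th percentile, 1.5-fold, and lists without the 5 genes. Scripts (Python 3.11.15, pandas 2.3.3, statsmodels 0.14.6) were tested on simulated data.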

Additional observations from a re-analysis of the deposited data

How the results depend on the processing

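Under 5 alternatives each, the 5 genes kept their direction in 25 of 25 values and moved by less than the probe set SD of 0.32. Some of these values could not have turned. The brightest probe set leaves a gene with 1 probe set unchanged, which all 5 are. Median centring adds the same 0.05 to every difference, which is less than the size of any of the 5. DDIT4 ran from 0.74 to 0.87, VLDLR from 0.57 to 0.74, STC2 from −1.003 to −0.80 and ASNS from −0.29 to −0.18. Over all measured genes, 123 were at least 2-fold lower and 234 higher. At 1.5-fold these counts were 613 and 933, and at 2-fold with an offset of 16 they were 87 lower and 124 higher. The median of the stress sensors and factors, 0.16, was 0.00 with the level filter at the 70th percentile. The median of the stanniocalcin and IGF list, 0.17, was 0.0675 without a level filter and 0.39 with the 70th percentile. Of 119 list medians under alternatives, 112 moved by less than the probe set SD divided by the square root of the number of genes. No paired analysis was possible because each group has 1 sample.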

Other observations

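Of the 46255 rows, 1859 (4.02%) held identical values in both arrays to the 4 decimals of the table, and so did 123 of the 10592 measured genes, EIF2AK1 among them. None of the 5 genes was among these.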
